A study of Mus musculus with 8 samples.

Results

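Nxf2, Rrad, Adad1, 4921531P14Rik and 9230110C19Rik are 5 genes whose transcripts were abundant in control fetal male germ cells and scarce after deletion of Snf5. They were selected by name, and for a strong difference between Snf5 Ctrl and Snf5 CKO male germ cells, so the male values below describe that choice and were not tested. Each gene was a single locus in each expression table, 5 of 23944 named loci in the table for males and 5 of 24281 in the table for females. The female libraries played no part in the choice, and the female comparison was tested.

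RNA-Seq was performed on germ cells sorted by an Oct4-EGFP transgene from mouse gonads at embryonic day 15.5, with 2 libraries for each combination of sex and genotype, 8 in all. Snf5, also named Smarcb1, encodes a subunit of SWI/SNF complexes, which use ATP to move nucleosomes. Snf5 CKO germ cells carried a floxed and a deleted Snf5 allele (Snf5 fx/Δ) with TNAP-Cre, a Cre recombinase expressed from the Alpl locus in primordial germ cells, and the study's methods describe recombination in these cells as incomplete. Snf5 Ctrl samples were a mixture of Snf5 fx/+, Snf5 fx/Δ and Snf5 fx/+ with TNAP-Cre germ cells, so a part of the control cells also carried the deleted allele or the Cre. The labels give the strain as C57BL/6, whereas the methods describe a mixed background. The cells of a sample came from 1 or several embryos, and the study describes the libraries of a group as biological duplicates. In males the study lists several embryos for each control and 1 embryo for each Snf5 CKO sort. Pooling was thus not balanced between the male genotypes. Values are FPKM, fragments scaled for transcript length and for the number of mapped fragments. Differences are those of log2(FPKM + 1), Snf5 CKO minus Snf5 Ctrl. The tables for the 2 sexes were normalized separately, so levels in males and females are set side by side and were not tested against each other.

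At this stage male germ cells leave the cell cycle, become prospermatogonia and begin to silence transposable elements through small RNAs and de novo DNA methylation, while female germ cells enter meiosis. NXF2 is an X-linked relative of NXF1, the receptor that carries bulk mRNA through the nuclear pore. RRAD is a small GTPase of the RGK family, best known in muscle and heart, where it holds back voltage-gated calcium channels. ADAD1 is a testicular RNA-binding protein with an adenosine deaminase domain. 9230110C19Rik, now named Cfap300, encodes a protein needed to assemble motile cilia, and 4921531P14Rik is annotated as a long intergenic non-coding RNA.

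On the mm10 genome, the male table placed Nxf2 at chrX:134944526-134964754, Rrad at chr8:104628062-104631321, Adad1 at chr3:37063596-37112613, 4921531P14Rik at chr18:83291074-83325931 and 9230110C19Rik at chr9:8020447-8043039. In the GENCODE annotation the longest transcript of Nxf2 has 22 exons and 2393 nt, and that of Rrad 5 exons and 1577 nt. The longest transcript of Adad1 has 12 exons and 3101 nt, that of 4921531P14Rik 5 exons and 1354 nt, and that of 9230110C19Rik 7 exons and 1592 nt. Rrad overlaps the antisense gene Gm33023 over 496 bp and Adad1 overlaps Il2 on the other strand over 1408 bp in this annotation. The library kit does not mark strand, so reads from such overlaps cannot be assigned to a strand. The Adad1 locus as measured in males ended 8.10 kb from Il2, so the annotated overlap with Il2 lies outside it. Il2 was at or under 0.0782 FPKM in the male libraries. The span of Adad1 also holds the processed pseudogenes Gm12582, Gm12583 and Gm12584.

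Promoter sequences from RefSeq (build GRCm38.p6, 250 bases before to 50 bases after a transcript start) were used for Nxf2, with 2 starts, and for 9230110C19Rik, with 1. Each was searched on both strands for CACGTG, an E-box palindrome recognised by basic helix-loop-helix factors, and for GCGGGAA (an E2F-type site), TGACGT (the core of the cAMP response element), CCGCCC (the GC box), TATAAA (the TATA box) and CCAAT (the CCAAT box). The upstream sequence of the distal Nxf2 start (chrX:134964755-134965004, minus strand) is shown because it held the densest motif cluster of these windows, and capitals mark CACGTG.

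Nxf2 upstream of start 1: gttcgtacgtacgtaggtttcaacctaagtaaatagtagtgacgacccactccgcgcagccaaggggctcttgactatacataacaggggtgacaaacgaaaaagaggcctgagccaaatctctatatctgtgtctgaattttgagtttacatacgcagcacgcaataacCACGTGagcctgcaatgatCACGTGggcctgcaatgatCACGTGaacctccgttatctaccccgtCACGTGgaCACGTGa

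This window contained 5 copies of CACGTG, beginning 80, 61, 42, 15 and 7 bases before the start and spanning 79 bases. Of 32851 promoter windows in the RefSeq table, 7.15% held at least 1 copy, 0.0883% held 3 or more, and 5 windows (0.0152%) held 5 or more. Those 5 windows belonged to Gm40008, with 3 windows, Mfsd1 and Nxf2. The window of the other Nxf2 start (chrX:134963848-134964147) contained no CACGTG and 1 GCGGGAA, a motif found in 4.60% of windows. The 9230110C19Rik window (chr9:8042826-8043125) held 1 CCGCCC, present in 35.7% of windows. The distal Nxf2 window contained 20 CpG dinucleotides, that of the other Nxf2 start 17 and that of 9230110C19Rik 8, against a median of 7 over all windows. None of these 3 windows held TGACGT, found in 7.51% of all windows, the TATA box, found in 13.6%, or the CCAAT box, found in 37.4%. A match is a description of the letters in a window and not of a bound site.

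**Figure D1:**
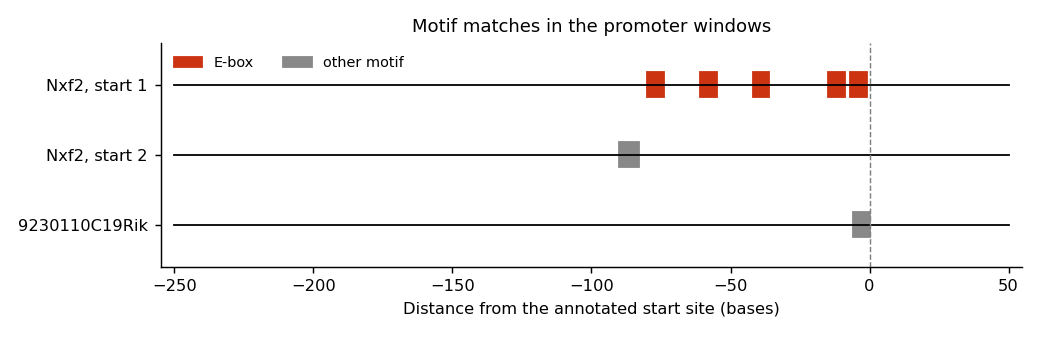
Positions of motif matches (boxes) in the 3 promoter windows, by distance in bases from the annotated start, which is the dashed line. The 5 E-box copies (red) of Nxf2 start 1 lie between 80 and 2 bases before the start, and the other windows hold 1 match each of another motif (grey).

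Snf5 transcripts were depleted in the Snf5 CKO libraries of both sexes. Smarcb1 was at 141 and 167 FPKM in male Snf5 Ctrl and at 8.73 and 10.1 FPKM in male Snf5 CKO, a log2 difference of -3.90 (SE 0.18, adjusted p = 0.0022, limma with Benjamini-Hochberg adjustment, lower in 2 of 2 libraries). In females it was at 23.4 and 22.3 FPKM in Snf5 Ctrl and at 4.24 and 2.47 FPKM in Snf5 CKO (-2.48, SE 0.24, adjusted p = 0.00029, lower in 2 of 2 libraries). The level left was 6.09% of control in males and 14.7% in females.

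The libraries were checked for markers of other cells of the gonad. Summed FPKM of 6 germ cell markers was 4876 to 5259 in male Snf5 Ctrl and 4441 to 5005 in male Snf5 CKO, with Mael (-2.97) and Dnd1 (-1.78) called lower and the other 4 not called. The sum joined opposite directions. In both Snf5 CKO libraries Dazl, Dppa3 and Pou5f1 were above both controls, and Ddx4, Mael and Dnd1 were below them. Dppa3 was the largest term, with means of 1890 FPKM in Snf5 Ctrl and 2628 FPKM in Snf5 CKO. All 6 Sertoli cell markers were called higher in male Snf5 CKO, and their sum was 74.3 to 106 FPKM in Snf5 Ctrl and 485 to 658 FPKM in Snf5 CKO. The sums of 5 Leydig cell markers (58.2 to 85.7 against 15.1 to 19.2 FPKM, 3 called lower) and of 6 stromal markers (11.04 to 22.0 against 2.998 to 4.58 FPKM, 3 called lower) were lower in male Snf5 CKO. The Leydig markers called included Insl3, in a locus shared with Jak3. The part of these cells in the male values of the 5 genes was not tested. The sum of 6 muscle markers was 2.19 to 2.34 FPKM in male Snf5 Ctrl and 0.664 to 1.04 FPKM in male Snf5 CKO. Of these markers 5 were under 1 FPKM in all male libraries, and none was called. The part of muscle cells in the values of Rrad was not tested.

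In females the summed germ cell markers were 1858 to 1901 FPKM in Snf5 Ctrl and 2925 to 3118 FPKM in Snf5 CKO. Dppa3 (51.2 against 1519 FPKM on average), Pou5f1 and Dnd1 were called higher, Mael was called lower, and Ddx4 and Dazl were not called. The 6 Sertoli cell markers (4.76 to 6.94 against 16.5 to 18.7 FPKM, 2 called higher) and the 5 pre-granulosa markers (7.47 to 9.76 against 15.4 to 18.1 FPKM, 2 called higher and 1 lower) had higher sums in Snf5 CKO, and their part in the female differences of Nxf2, Adad1 and 9230110C19Rik was not tested. The 2 Sertoli cell markers called were Aard and Amhr2, and the other 4 were under 1 FPKM in all female libraries. No marker was listed at 0 in every library of a sex. Of the remaining lists, pre-granulosa markers summed to 1.95 to 3.87 FPKM in all male libraries, blood and endothelial markers to between 12.9 and 59.3 FPKM, female Leydig markers to 4.74 to 4.89 FPKM in Snf5 Ctrl and 11.8 to 12.01 FPKM in Snf5 CKO, female stromal markers to between 3.97 and 13.1 FPKM, and muscle markers to at most 2.34 FPKM in all 8 libraries. Of the blood and endothelial markers, Pecam1 was called higher in female Snf5 CKO (3.87 against 22.0 FPKM on average, 2.23, adjusted p = 0.00021, limma). Of the female stromal markers, Col1a1 was called lower (-1.11). Insl3, the 1 female Leydig marker called higher, was in a locus shared with Jak3. That locus was at 3.13 and 3.99 FPKM in female Snf5 Ctrl and at 8.52 and 10.1 FPKM in Snf5 CKO. The tables hold no counts, so the depth of each library is unknown, and no counting interval is given.

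Nxf2 had the highest control level of the 5 genes in male germ cells. The Snf5 Ctrl libraries held 373 and 327 FPKM, and the Snf5 CKO libraries 6.51 and 11.1 FPKM. The group means were 350 ± 32.6 and 8.82 ± 3.27 FPKM (SD, n = 2), and the Snf5 CKO mean was 2.52% of the control mean, or 39.7-fold lower. Both Snf5 CKO libraries were far below both controls. Among the named loci of a library ranked from the highest FPKM, Nxf2 stood at 249 and 374 in the controls and at 7829 and 6200 in Snf5 CKO. In these sorted cell populations, fewer cells expressing a gene and less RNA per cell cannot be told apart.

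Rrad was the next most abundant. Its level was 192 and 282 FPKM in the male controls and 4.51 and 11.5 FPKM in Snf5 CKO. The means were 237 ± 63.8 and 7.997 ± 4.93 FPKM (SD, n = 2), and 3.38% of the control level was left. The controls of Rrad spread more than those of Nxf2, yet the lower control was still above both Snf5 CKO libraries. Its rank moved from 549 and 432 in the controls to 8692 and 6108 in Snf5 CKO.

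The non-coding RNA 4921531P14Rik was at 31.2 FPKM in each of the male Snf5 Ctrl libraries and at 0.745 and 1.66 FPKM in Snf5 CKO, and 3.86% of the control mean was left. The controls were nearly identical, and the Snf5 CKO libraries differed from each other more than the controls did. Its rank among named loci moved from 3394 and 3319 to 12016 and 10865.

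9230110C19Rik, the cilia assembly gene, was at 96.0 and 102 FPKM in male Snf5 Ctrl and at 9.84 and 11.3 FPKM in Snf5 CKO, with 10.7% left. Its ranks were 1203 and 1175 in the controls and 6712 and 6152 in Snf5 CKO. Adad1, the RNA-binding protein gene, was at 59.0 and 50.1 FPKM in male Snf5 Ctrl and at 6.04 and 7.09 FPKM in Snf5 CKO, with 12.05% left. Its ranks were 1948 and 2284 in the controls and 8011 and 7460 in Snf5 CKO. 9230110C19Rik and Adad1 kept a larger share of their control level than Nxf2, Rrad and 4921531P14Rik did, in each replicate.

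On the log2 scale the male differences were -5.20 for Nxf2, -4.82 for Rrad, -3.90 for 4921531P14Rik, -3.11 for 9230110C19Rik and -2.87 for Adad1. For all 5 genes, both libraries of Snf5 CKO were lower than either control, which was also the case for 39.9% of the 12368 tested loci in males. The genes were chosen in this contrast, so nothing is read from that count. Of all tested male loci, 17.5% were called lower, at a log2 difference of -1 or less and an adjusted p under 0.05 (limma), and 14.3% higher.

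**Figure D2:**
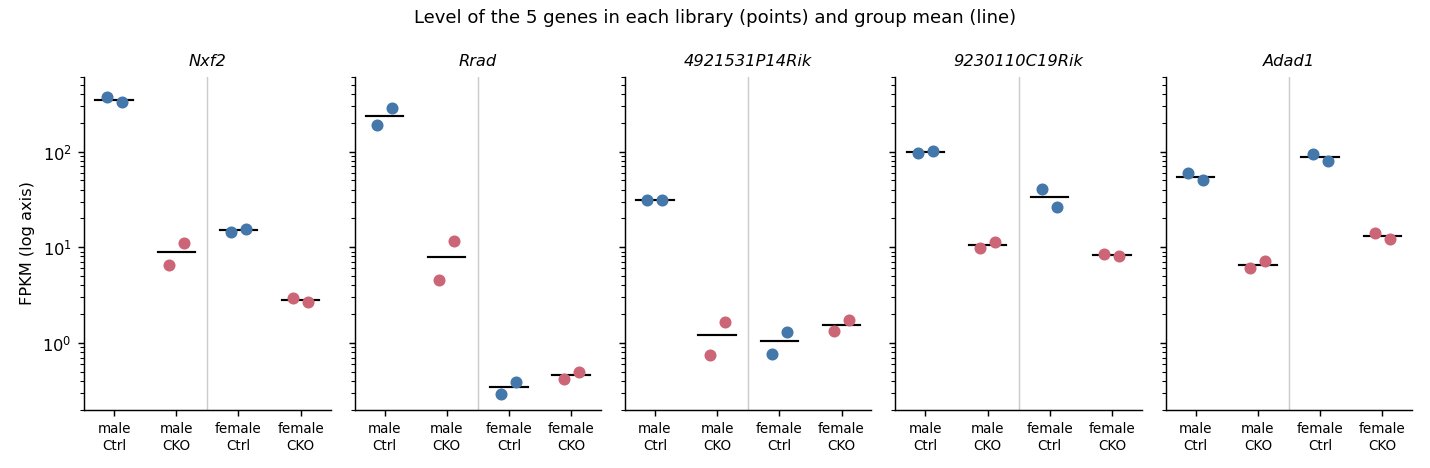
FPKM (log axis) of the 5 genes in each library, with a point for each of the 2 libraries of a group and a line at the group mean. Male Snf5 CKO libraries lie below male controls in all 5 panels, whereas in females this separation is seen for Nxf2, 9230110C19Rik and Adad1 and not for Rrad and 4921531P14Rik.

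On the FPKM scale as given, the share left in male Snf5 CKO was higher in replicate 2 than in replicate 1 for each gene. It was 1.75% and 3.41% for Nxf2, 2.35% and 4.07% for Rrad, and 2.39% and 5.33% for 4921531P14Rik. For 9230110C19Rik it was 10.2% and 11.1%, and for Adad1 10.2% and 14.2%. The share left of Smarcb1 did not follow this order, at 6.18% in replicate 1 and 6.02% in replicate 2. Summed FPKM over all loci was 682745 (Snf5 Ctrl) and 692103 (Snf5 CKO) in male replicate 1. In male replicate 2 it was 1.37e+06 and 1.55e+06. Unnamed loci held 6.56% (Snf5 Ctrl) and 5.46% (Snf5 CKO) of these sums in replicate 1. In replicate 2 they held 42.1% and 35.4%. The part of library scaling in the order of the replicates was not tested.

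The tables also give confidence bounds for each FPKM value, whose level is not stated in the file headers. In males, the lowest lower bound of the controls was above the highest upper bound of Snf5 CKO for Nxf2 (105 against 21.3 FPKM), Rrad (62.4 against 22.1 FPKM) and 9230110C19Rik (22.0 against 21.7 FPKM). The bounds met for Adad1 (12.5 against 13.9 FPKM) and for 4921531P14Rik, whose control bounds reached 0. In females the bounds of Snf5 Ctrl and Snf5 CKO met for all 5 genes.

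The female comparison addressed whether these genes also differed outside the male lineage, and 3 of the 5 fell. Testing required a mean of 1 FPKM or more. Of the 4 genes that reached it, Adad1, Nxf2 and 9230110C19Rik were called lower and 4921531P14Rik was not called. For the 3 genes both Snf5 CKO libraries were below both controls, as for 45.3% of the tested loci. Over all 11642 tested female loci, 21.8% were called lower and 17.2% higher.

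Adad1 was the 1 gene of the 5 with a higher FPKM in female than in male controls, on the separately normalized scales. It was at 93.4 and 80.0 FPKM in female Snf5 Ctrl and at 13.97 and 12.3 FPKM in Snf5 CKO. The log2 difference was -2.63 (SE 0.18, adjusted p = 0.00011, limma), lower in 2 of 2 libraries, with 15.1% of the control mean left. A more negative difference was measured for 185 of the 11642 loci. By rank, Adad1 stood at 1272 and 1476 among the named loci in female controls, above its male control ranks, and at 5530 and 5769 in female Snf5 CKO.

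Nxf2 was listed at a much lower level in female than in male controls. It was at 14.5 and 15.5 FPKM in female Snf5 Ctrl and at 2.96 and 2.66 FPKM in Snf5 CKO. The difference was -2.07 (SE 0.18, adjusted p = 0.00022, limma), lower in 2 of 2 libraries, and 18.7% of the control mean was left. By rank, Nxf2 stood at 5732 and 5381 in female controls and at 9396 and 9555 in female Snf5 CKO.

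9230110C19Rik was at 40.6 and 26.0 FPKM in female Snf5 Ctrl and at 8.57 and 8.17 FPKM in Snf5 CKO. The difference was -1.84 (SE 0.24, adjusted p = 0.00083, limma), lower in 2 of 2 libraries, and 25.1% of the control mean was left. Its controls spread more than those of Nxf2 or Adad1, with an SD of 10.3 FPKM around a mean of 33.3 FPKM, and without moderated variances its adjusted p was 0.074.

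Rrad and 4921531P14Rik were scarce in females, with control ranks of 13345 and 12853 for Rrad and of 11770 and 10787 for 4921531P14Rik among 24281 named loci. Rrad was at 0.295 and 0.393 FPKM in female Snf5 Ctrl and at 0.421 and 0.494 FPKM in Snf5 CKO, and was not tested. 4921531P14Rik was at 0.765 and 1.31 FPKM in female Snf5 Ctrl and at 1.33 and 1.74 FPKM in Snf5 CKO, a difference of 0.32 (SE 0.22, adjusted p = 0.24, limma). Both female Snf5 CKO libraries were slightly above both controls for these 2 genes, as for 36.2% of the tested loci, and the confidence bounds of every female library reached 0 for both genes.

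**Figure D3:**
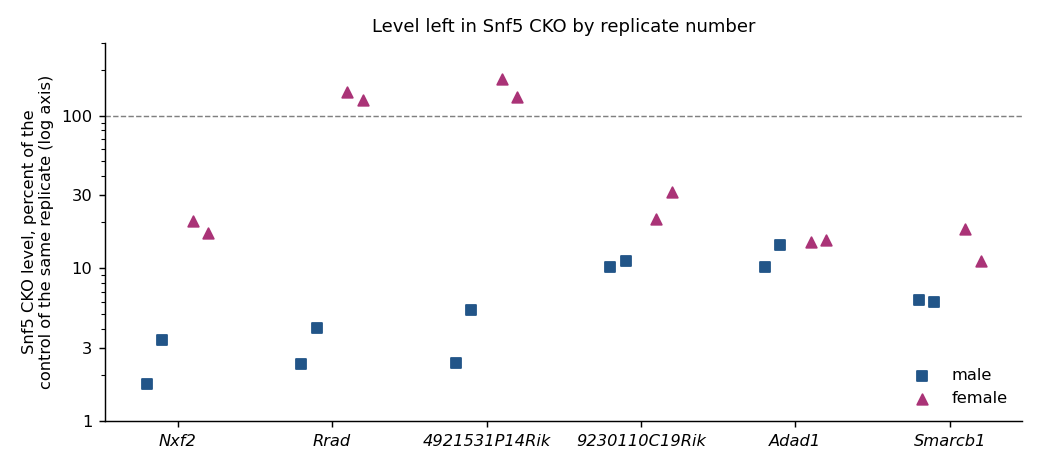
Level in Snf5 CKO as a percentage of the control library of the same replicate number (log axis), for the 5 genes and for the deleted gene Smarcb1, in males (squares) and females (triangles). Male values of Nxf2, Rrad and 4921531P14Rik lie between 1.75% and 5.33%, while the female values of Rrad and 4921531P14Rik lie above the dashed line, which marks the control level.

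The order of the genes also differed between the sexes. In male controls it was Nxf2, Rrad, 9230110C19Rik, Adad1 and 4921531P14Rik, and no neighbours in this order overlapped, although the higher Rrad control (282 FPKM) came near the lower Nxf2 control (327 FPKM). In female controls the order was Adad1, 9230110C19Rik, Nxf2, 4921531P14Rik and Rrad, again with no overlap between neighbours. In male Snf5 CKO the libraries of Nxf2, Rrad, 9230110C19Rik and Adad1 lay between 4.51 and 11.5 FPKM and overlapped, except that 9230110C19Rik was above Adad1, and 4921531P14Rik was below that range.

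Pattern similarity was measured over the 8 libraries as the Euclidean distance between log2(FPKM + 1) values centred on the gene's own mean within each table, so that a smaller distance is a more similar pattern. Among the 5 genes, Adad1 and 9230110C19Rik were the closest pair, at 0.91, followed by Rrad and 4921531P14Rik at 1.12. Rrad and Adad1 were the farthest apart, at 3.50. The distances use the female values and the male values by which the genes were chosen, and are a description. A likeness in either sex between a gene and those nearest to it is thus built into the measure.

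Of 12515 genes, those most like Nxf2 were Tdrd9 (distance 1.06), Piwil4 (1.06) and Gtsf1 (1.12), against a median distance of 5.60. All 3 act in the piRNA pathway, which silences transposons in germ cells. Piwil4 averaged 149 FPKM in male Snf5 Ctrl and 3.35 FPKM in Snf5 CKO, and 2.35 and 0.515 FPKM in females. Tdrd9 averaged 82.1 and 2.88 FPKM in males, and 8.86 and 1.87 FPKM in females. Gtsf1 averaged 502 and 23.4 FPKM in males, and 71.6 and 11.9 FPKM in females. Like Nxf2, these genes were at a lower FPKM in females and were called lower there too. All 3 lost their female calls without moderation. Without female Snf5 CKO replicate 2 the difference of Piwil4 was -0.87, short of the fold required for a call.

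Rrad was most like Rhox10 (0.52), Drc1 (0.67) and Plac8 (0.81), with a median distance of 4.99. Rhox10, a homeobox gene of the X-linked Rhox cluster, averaged 160 and 5.81 FPKM in male Snf5 Ctrl and Snf5 CKO, and 0.269 and 0.033 FPKM in females. Drc1, which encodes a subunit of the axonemal dynein regulatory complex, averaged 51.1 and 1.11 FPKM in males. Like Rrad, both were under 1 FPKM in female controls.

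4921531P14Rik was most like 1700012B07Rik (0.55), Afp (0.58) and Fabp9 (0.61), against a median of 4.08. Afp, which encodes alpha-fetoprotein, averaged 17.9 FPKM in male Snf5 Ctrl and 0.465 FPKM in Snf5 CKO. Fabp9, a fatty acid binding protein gene of the testis, averaged 25.5 and 0.528 FPKM. All 3 were under 0.1 FPKM in each female group.

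Adad1 was most like Gm884 (0.42), Tsc22d3 (0.47) and Ppp1r13b (0.48), with a median of 3.90. Tsc22d3, a glucocorticoid-induced transcription regulator, averaged 29.6 and 4.56 FPKM in male Snf5 Ctrl and Snf5 CKO, and 359 and 57.4 FPKM in females. 9230110C19Rik was most like Depdc7 (0.51), Susd4 (0.52) and Baiap2 (0.54), with a median of 3.65. Baiap2, an adaptor of the actin cytoskeleton, averaged 119 and 13.6 FPKM in males, and 48.0 and 9.90 FPKM in females. These genes, like Adad1 and 9230110C19Rik, had lower means in Snf5 CKO in both sexes.

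The relatives of each gene were examined next, starting with the NXF family. In males Nxf1, the general export receptor, was at 111 and 93.8 FPKM in Snf5 Ctrl and at 94.6 and 81.6 FPKM in Snf5 CKO, and the groups overlapped (-0.22, SE 0.19, adjusted p = 0.40, limma). In females it was at 155 and 107 FPKM in Snf5 Ctrl and at 86.5 and 64.8 FPKM in Snf5 CKO (-0.78, SE 0.25, adjusted p = 0.031, limma), short of the fold required for a call, which it passed without Snf5 Ctrl replicate 2 (-1.04).

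Nxf3, another X-linked family member, fell in males from a far lower level than that of Nxf2. It was at 5.28 and 4.84 FPKM in Snf5 Ctrl and at 0.641 and 0.618 FPKM in Snf5 CKO (-1.89, SE 0.17, adjusted p = 0.0026, limma). In females Nxf3 was at 0.478 and 0.536 FPKM in Snf5 Ctrl and at 0.252 and 0.126 FPKM in Snf5 CKO and was not tested, and Nxf7 was under 0.3 FPKM in all 8 libraries.

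Of 26 tested genes of mRNA export other than Nxf2 in males, 4 fell, 2 rose and 20 were not called, where 17.5% of all tested male loci were called lower and 14.3% higher. The median difference was -0.19, against -0.07 over all these loci. The largest were Nxf3, Gle1 (-1.79, adjusted p = 0.0036) and Poldip3 (-1.42, adjusted p = 0.0070), which fell, and Mcm3ap (1.57, adjusted p = 0.012), which rose. GLE1 acts in release of mRNA at the pore, and MCM3AP is a scaffold of the TREX-2 complex. In females 2 of 25 fell and 3 rose, where 21.8% and 17.2% of all loci were called, with a median of -0.02 against -0.14 over all loci. Thoc6 (1.66, adjusted p = 0.00047), Nxt1 (1.61, adjusted p = 0.00076) and Ddx19b (1.47, adjusted p = 0.0017) rose, and Rae1 fell (-1.14, adjusted p = 0.0032), short of the fold with median-of-ratios rescaling (-0.97). NXT1 is the partner with which NXF1 and NXF2 form heterodimers.

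The other RGK GTPases were scarce. Gem was between 0.671 and 1.02 FPKM in the 4 male libraries, and Rem1 and Rem2 were at or below 0.240 FPKM in them. None of the 3 reached the level required for testing in either sex. Of 12 tested genes among RGK partners (such as calcium channel subunits and kinases) in males, 2 fell and 4 rose, where 17.5% and 14.3% of all loci were called, with a median of 0.56 against -0.07. Those that fell, named after their values were seen, were Cacnb1 (-1.30) and Camk2g (-1.25). Among those that rose were Cacnb2 (1.94, adjusted p = 0.0027), Camk2b (1.63, adjusted p = 0.0059) and Cacnb4, in a locus shared with Arl5a (1.33, adjusted p = 0.010). CACNB2 and CACNB4 are beta subunits of voltage-gated calcium channels, to which RGK proteins bind. Cacnb2 was at 0.589 and 0.403 FPKM in male Snf5 Ctrl and at 5.11 and 4.34 FPKM in Snf5 CKO. In females 1 of 11 fell, Rock1 (-1.41, adjusted p = 0.00051), and 2 rose, Cacnb3 (2.28, adjusted p = 0.00014) and Camk2b (1.32, adjusted p = 0.0017), where 21.8% and 17.2% of all loci were called, with a median of -0.26 against -0.14.

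Of the 7 genes with an adenosine deaminase domain other than Adad1, 1 fell and 0 rose in males. Over all tested male loci, 17.5% were called lower and 14.3% higher. The gene that fell was Adad2, a paralogue of Adad1. It was at 57.3 and 84.5 FPKM in male Snf5 Ctrl and at 24.1 and 30.8 FPKM in Snf5 CKO (-1.32, SE 0.26, adjusted p = 0.013, limma). In females Adad2 was at 14.7 and 19.9 FPKM in Snf5 Ctrl and at 17.2 and 19.5 FPKM in Snf5 CKO, and the groups overlapped (0.10, SE 0.20, adjusted p = 0.70, limma). Adad1 and Adad2 thus differed in whether they were called in females, and the difference between them was not tested.

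Adarb1, an RNA editing enzyme gene, fell in females from 29.1 and 28.4 FPKM to 5.08 and 4.98 FPKM (-2.30, adjusted p = 0.00014, limma). In males it was at 3.92 and 3.54 FPKM in Snf5 Ctrl and at 1.35 and 1.46 FPKM in Snf5 CKO (-0.97, adjusted p = 0.011, limma), short of the fold required. Adarb2 rose in females (2.097, adjusted p = 0.0032, limma). In males its difference of 1.28 had an adjusted p of 0.067, and of 0.0012 with the replicate number as a block. Adar, the general editing enzyme gene, was not called in males (-0.75, adjusted p = 0.11) or females (-0.18, adjusted p = 0.48). In females 1 of the 7 genes of this list fell and 1 rose, where 21.8% and 17.2% of all loci were called. The list medians were 0.19 in males and -0.18 in females, against -0.07 and -0.14 over all loci.

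A list of 18 genes of fetal male germ cells (NANOS and DND1 regulators, DNMT3 factors and the piRNA machinery), several of which the study displayed from these same samples, was set beside the 5 genes. In males 16 of 18 fell, and the differences ran from -5.27 to -0.87 with a median of -2.39, against -0.07 over all tested male loci and 17.5% of loci called lower. The most negative were Dnmt3l (-5.27, adjusted p = 0.0022), Piwil4 (-5.10, adjusted p = 0.0022), Rhox10 (-4.70, adjusted p = 0.0037) and Gtsf1 (-4.43, adjusted p = 0.0023). The male difference of Nxf2 (-5.20) lay between those of Dnmt3l and Piwil4, and that of Rrad (-4.82) between those of Piwil4 and Rhox10. DNMT3L is the cofactor of de novo DNA methylation. It averaged 105 FPKM in male controls and 1.74 FPKM in Snf5 CKO. The Sertoli cell markers were higher in the same Snf5 CKO libraries (485 to 658 FPKM, against 74.3 to 106 FPKM), and their part in these differences was not tested.

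In females 6 of the 15 tested genes of this list fell and 3 rose, with a median of -0.54, against -0.14 over all loci and 21.8% called lower. The largest differences were those of Dnd1 (4.39, adjusted p = 0.00011) and Nanos3 (2.82, adjusted p = 0.00029), which rose, and of Gtsf1 (-2.48, adjusted p = 0.00041) and Mael (-1.94, adjusted p = 0.00089), which fell. DND1 and NANOS3 are RNA-binding proteins that keep germ cells alive, and GTSF1 and MAEL act in the piRNA pathway. Adad1, Nxf2 and 9230110C19Rik were also called lower in females, as was 21.8% of all tested loci. The other 6 tested genes of the list were not called, and genes of the piRNA pathway were among them.

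**Figure D4:**
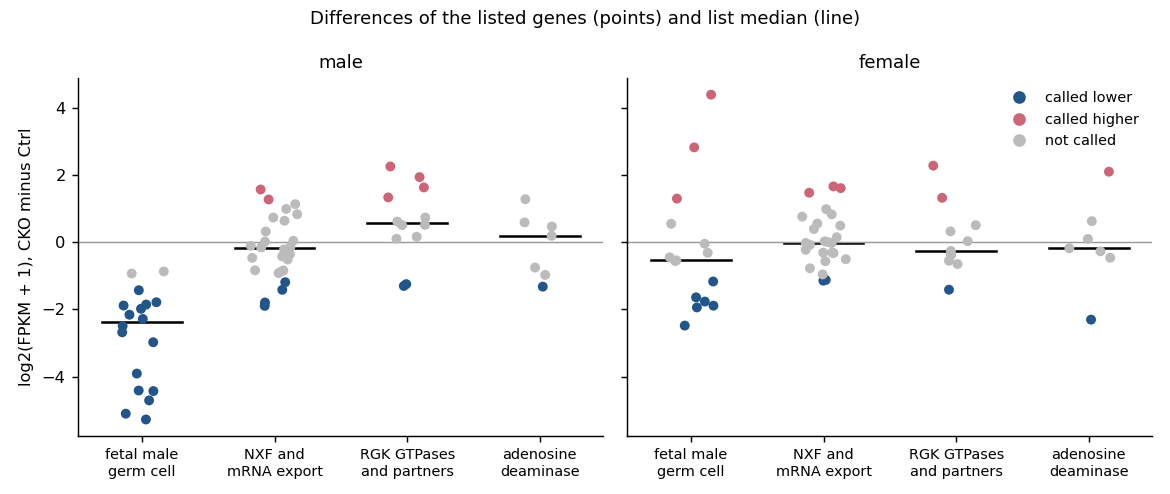
Differences of log2(FPKM + 1), Snf5 CKO minus Snf5 Ctrl, of the tested genes of the 4 lists (points) with the list median (line), in males and females. Only the list of fetal male germ cell genes in males lies wholly below 0, with a median of -2.39, and the medians of the other 3 lists lie between -0.26 and 0.56.

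The genes on either side of the 5 loci were then examined in males, 3 named loci on each side. Of these 30 loci, 17 were tested, 3 fell and 3 rose, shares near the 17.5% and 14.3% of all male loci. Armcx2, 135 kb from Nxf2, fell (-1.42, adjusted p = 0.0062), while Zmat1, at 6.62 kb, was at 4.72 and 3.96 FPKM in Snf5 Ctrl and at 3.50 and 2.91 FPKM in Snf5 CKO (-0.34, adjusted p = 0.21). The neighbour of Nxf2 at the shorter distance was thus not called in males, and it was called lower in females (-1.62).

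Nae1, which encodes a subunit of the NEDD8 activating enzyme, fell in males from 318 and 418 FPKM to 121 and 127 FPKM (-1.55, adjusted p = 0.0062, limma). It was also called lower in females (-1.06). Nae1 was listed 3.67 kb from Rrad, the same distance as Cdh16 and Mir297-2, so its own distance is not resolved. Fam96b, 8.52 kb from Rrad on the other side, was at 147 and 273 FPKM in male Snf5 Ctrl and at 73.5 and 114 FPKM in Snf5 CKO (-1.12, adjusted p = 0.066, limma). With the replicate number as a block its adjusted p was 0.00016, and it was then called lower, as it was without Snf5 Ctrl replicate 1 (-1.56) or Snf5 CKO replicate 2 (-1.44). Rrad was chosen for its fall in this contrast, so nothing is read from its larger difference (-4.82).

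4932438A13Rik, 10.2 kb from Adad1, fell in males (-1.75, adjusted p = 0.020, limma) and lost its call without Snf5 Ctrl replicate 1 (-1.46, adjusted p = 0.059). Cetn4, 196 kb from Adad1, rose in males (1.82, adjusted p = 0.0075). Around 4921531P14Rik the nearest tested gene was Zfp516, listed at 286 kb, the same distance as 4930592I03Rik. Zfp516 was not called (-0.84, adjusted p = 0.054) except without Snf5 CKO replicate 1 (-1.08). Tshz1 (1.93, adjusted p = 0.0027) and Zadh2 (1.31, adjusted p = 0.0053) rose on the other side of 4921531P14Rik. None of the 4 tested neighbours of 9230110C19Rik was called. Their differences ran from -0.55 to 0.52, with Yap1, at 15.8 kb, at 0.48 (adjusted p = 0.15).

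Unnamed loci within 10 kb were listed as well. Near Rrad, chr8:104633655-104635838 was at 1.82 and 1.18 FPKM in male Snf5 Ctrl and was listed at 0 in both Snf5 CKO libraries, as was chr8:104633006-104633426, at 0.610 and 1.28 FPKM in Snf5 Ctrl. Near 4921531P14Rik, chr18:83326051-83326798 was at 2.51 and 2.89 FPKM in male Snf5 Ctrl and at 0.403 and 0.162 FPKM in Snf5 CKO.

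**Figure D5:**
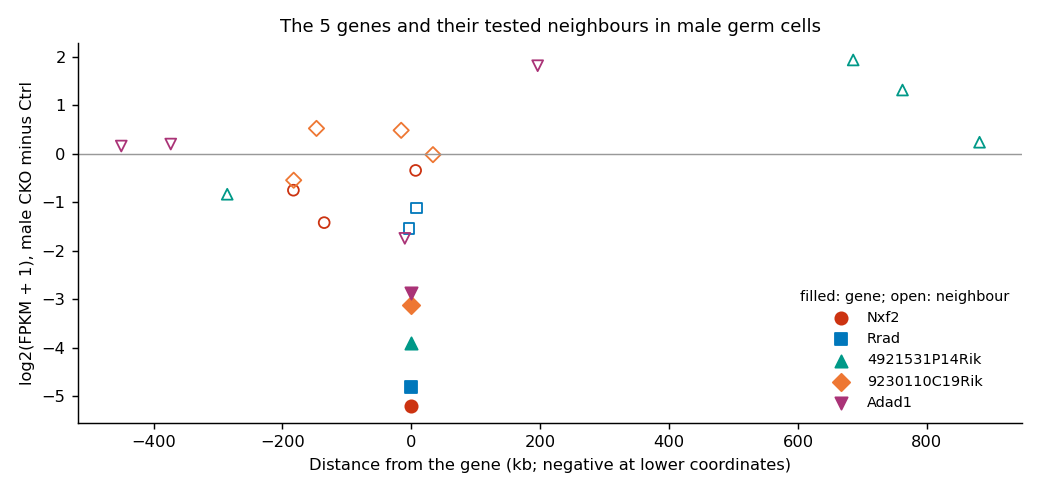
Difference of log2(FPKM + 1) in males, Snf5 CKO minus Snf5 Ctrl, of the 5 genes (filled symbols, at 0 kb) and of their tested neighbours (open symbols), by listed distance in kb. The 5 genes lie between -5.20 and -2.87, and the 17 neighbours between -1.75 and 1.93. The 5 genes were chosen for their fall in this contrast, so nothing is read from the gap between these ranges.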

How the data were processed

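The deposited tables, 1 per sex, gave FPKM values and confidence bounds per locus and library, made by the authors with TopHat2 2.2.1 and Cuffdiff 2.1.1 (versions per the submitters' processing notes) on mm10 from SMART-Seq v4 amplified cDNA with Nextera XT libraries, so values may carry amplification bias. The annotation version and library scaling are not given in the sources used here. The tables hold no counts, so depth is unknown. No column of a library was unused. Unnamed loci (4737 female, 6272 male) were not tested. Their share of a library's summed FPKM ran from 5.46% to 42.1%.

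The sexes were fitted separately in R 4.3.3 with limma 3.58.1 (lmFit, eBayes with trend) on log2(FPKM + 1), for named loci averaging 1 FPKM or more in the 4 libraries of a table. Loci were called at an absolute log2 difference of 1 or more with an adjusted p under 0.05 (Benjamini-Hochberg over all tested loci). The code was tested on simulated data. The pseudocount understates differences of low genes. A start of a locus was counted from 0 in the tables, and 1 was added.

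Replicate numbers were taken as a shared batch, since male headers call them experiments and raw files of replicates 1 and 2 are named in different styles. Deviations of the replicates from group means correlated between Snf5 Ctrl and Snf5 CKO over genes at 0.504 (female table) and 0.595 (male table). The fit with this block was an alternative.

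The 5 genes and all lists were chosen with earlier results of these data known. The text names the 5 genes, Smarcb1, up to 4 called genes per list with the largest differences, close family members (1 listed gene is not reported here), the 3 genes of most similar pattern and neighbours. The 10 kb window for unnamed loci was chosen after values were seen. Tried as alternatives were rescaling to a common sum or by median of ratios, a pseudocount of 0.1, filters at 5 FPKM or absent, linear FPKM, eBayes without trend or moderation, the replicate block, loci with status OK alone, and leaving out each library. Gene models came from GENCODE, promoters from RefSeq. No promoter of Rrad, Adad1 or 4921531P14Rik was used. Plots used Python 3.11.15 and matplotlib 3.10.9.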

Additional observations from a re-analysis of the deposited data

Results flagged for a closer look

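Rrad and 4921531P14Rik had both male Snf5 CKO libraries below both controls and both female Snf5 CKO libraries above both controls. The female differences were 0.12 for Rrad and 0.32 for 4921531P14Rik on the log2(FPKM + 1) scale, against male differences of -4.82 and -3.90. The difference between the sexes was not tested, since the tables were normalized separately and the male contrast was used to choose the genes. Rrad was under 0.5 FPKM in all 4 female libraries.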

How the results depend on the processing

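Nxf2, Adad1 and 9230110C19Rik were called lower in females under every alternative run, except 9230110C19Rik without moderation (adjusted p = 0.074). With the replicate block, which changed no call among the 5 genes, the adjusted p was 6.2e-05 for Nxf2, 1.6e-05 for Adad1 and 0.00014 for 9230110C19Rik, and over all loci 2555 fell and 2019 rose in females and 2238 and 1861 in males. Leaving out 1 library gave differences of -2.13 to -2.01 for Nxf2, -2.75 to -2.52 for Adad1, -2.15 to -1.53 for 9230110C19Rik and 0.13 to 0.52 for 4921531P14Rik in females.

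Without moderation, where 2 libraries a group leave few degrees of freedom, 1055 loci fell and 866 rose in females (2543 and 2002 with it), and 370 and 279 in males (2160 and 1772). List genes called were then 3 lower and 2 higher in females (10 and 9 with it), and 4 and 0 in males (23 and 6), with 18 and 4 at an unadjusted p under 0.05. Of the male list of fetal germ cell genes 3 remained called lower. Neighbours in males gave 0 and 0 (3 and 3 with it), with 2 and 3 at an unadjusted p under 0.05. With a mean of at least 5 FPKM, 1353 loci fell in males and 0 neighbours rose, with fewer loci tested.

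Reversed, and not called, were Adad2 in females without Snf5 Ctrl replicate 1 (-0.11) and Adar in females without Snf5 CKO replicate 2 (0.000877), with ranges over the libraries left out of -0.11 to 0.30 for Adad2 and -0.36 to 0.000877 for Adar. On linear FPKM, Adad2 in males (adjusted p = 0.059) and Adarb2 in females (adjusted p = 0.080) lost their calls. Dnd1 and Nanos3 in males also lost theirs, as did further genes of the fetal male germ cell and mRNA export lists. Rae1 in females lost its call with median-of-ratios rescaling (-0.97), and the neighbour Fam96b was called with a common sum (-1.31). The cause was not tested. Rescaling to a common sum moved the median of all male loci from -0.07 to -0.24 and left 34.8% of male calls higher, against 45.1%. Median-of-ratios rescaling moved it to 0.07 (54.1% higher), and in females from -0.14 to 0.02. The male differences of the 5 genes kept their direction. With a pseudocount of 0.1 they were -4.68 for 4921531P14Rik, -3.22 for 9230110C19Rik and -3.03 for Adad1.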
